A study of Mus musculus with 41 samples.

Results

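The comparison described here sets the hippocampus of mice ranked medium in cognition against that of mice ranked low. Its members were chosen by label: 12 mice labelled medium and 8 labelled low, 20 of the 41 mice in the series. All were male C57BL/6J mice, an inbred strain, and the labels name no allele, drug or other treatment that sets the groups apart. Testing began at an age of 10 weeks with a battery that included 5 cognitive tests (the Barnes, radial and T mazes, then fear conditioning in week 33 and, in weeks 37 to 38, passive avoidance) with 11 parameters. The low, medium and high classes hold mice on which 2 rankings agreed, and hippocampal RNA was extracted 1 month after testing ended. The other 21 mice were 5 ranked high, 14 with an inconsistent ranking and 2 with incomplete data. Of the 14, mouse 2 also carries a description as medium. With it moved to the medium group, 0 probe sets were called and 725 reached an unadjusted p under 0.05, against 698 without it. Each mouse gave 1 array. The age field of the labels repeats the starting age, and all mice, low ones included, had been through the same battery before RNA was taken.

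The hippocampus encodes spatial and contextual memory. Its main circuit runs from the granule cells of the dentate gyrus to the pyramidal cells of CA3 and then CA1, with local inhibition by GABAergic interneurons. Neuronal firing there induces immediate early genes within minutes. Some of these encode transcription factors (Fos, Junb, Nr4a1), and others act at the synapse (Arc, Bdnf, Homer1). Many of them are targets of CREB, a factor that binds the cyclic-AMP response element.

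Levels are given as log2(intensity + 16) after quantile normalization over the 41 arrays, so a difference of 1 is a doubling for bright genes and understates the change of dim ones. In whole tissue, fewer cells of a type and less RNA per cell cannot be told apart. Pairwise correlations among the 20 arrays ran from 0.949 to a median of 0.986, and the lowest was 0.967 once the ninth medium mouse was left out. That array stood apart in regional markers. Its mean over the 11 dentate gyrus granule cell markers was 6.70, against 7.79 to 8.34 in the other 19 arrays, and its mean over the CA1 pyramidal cell markers was 7.61 against 8.71 to 9.06. Striatum markers averaged 8.80 there, against 7.85 to 8.13 elsewhere, and neocortical layer markers averaged 9.11 against 8.03 to 8.38. Medium mouse 9 thus lay outside the ranges that the other 19 arrays spanned in these marker lists. List counts are given with and, where they differ by more than 1 gene or the median changes sign, without that mouse.

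Choroid plexus markers divided the arrays along another line. The choroid plexus is the epithelium that secretes cerebrospinal fluid and lies against the hippocampus in the ventricle. The mean of its 9 tested markers was 8 or more in low mice 1, 6 and 7 (9.44, 9.19 and 9.77) and in medium mice 2, 5, 6 and 11 (9.67, 8.49, 9.68 and 9.44). It lay between 5.88 and 7.34 in the other 13 arrays and between 6.11 and 6.68 in the 5 high mice. The 41 arrays were further grouped by their bacterial spike-in controls into 3 clusters, a number set beforehand rather than found in the data. The 8 low and 12 medium arrays fell into them as 2 and 2, 2 and 5, and 4 and 5. The labels do not say what these spike-in clusters of arrays stand for.

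Medium and low mice were compared to ask which hippocampal genes separate the middle of the cognitive ranking from its bottom. At this number of arrays, no gene passed the test. Of 22519 probe sets, 0 reached an adjusted p under 0.05 in limma (0% called), and the smallest adjusted p was 0.998. An unadjusted p under 0.05 was reached by 698 probe sets, 3.1% of those tested, with 356 (1.58%) higher and 342 (1.52%) lower in medium mice. A test whose p-values were evenly spread would give 5%. There was no probe set in which every medium array lay above every low array or the reverse, 0% in both directions.

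Differences between the groups were small as well as unproven. They ran from -0.51 to 0.54, and the middle 50% of probe sets lay between -0.05 and 0.05. The median standard error was 0.07. For 15505 probe sets (68.9%) the whole 95% interval of the difference lay within 0.25 of zero, for bright genes a change of less than 1.19-fold. It lay within 0.5, or 1.41-fold, for 22124 (98.2%), and within 1, or 2-fold, for 22495 (99.9%). For dim genes the same bounds allow a larger change in intensity than these folds. In the same fit, high against low mice gave 2 calls and 8.16% of probe sets at an unadjusted p under 0.05, and high against medium mice gave 7 calls and 13.2%. These comparisons share their low and medium arrays with the one described here, and the high group held only 5 mice.

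**Figure D1:**
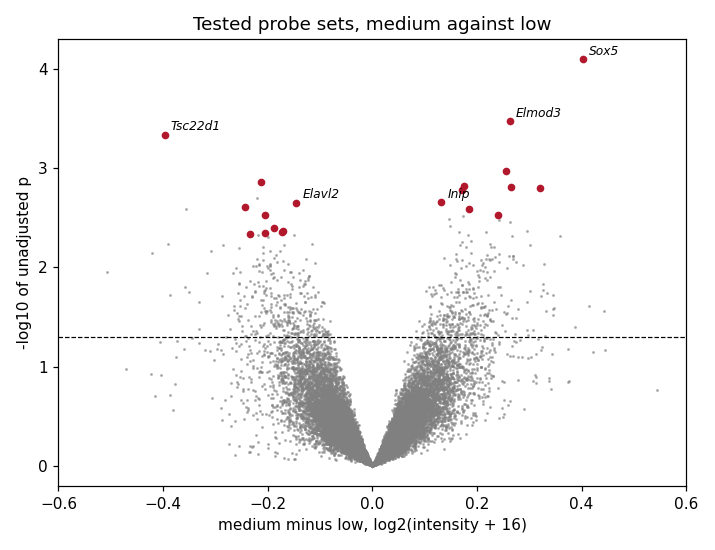
Difference between medium and low mice (x axis, log2(intensity + 16)) against the negative log10 of the unadjusted limma p (y axis) for 22519 probe sets, 1 grey point each. The dashed line marks an unadjusted p of 0.05, and red points are the 20 genes described individually, with Sox5 at 0.40 and Tsc22d1 at -0.40. None of the points passed after adjustment.

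Since no gene passed, the 10 with the smallest unadjusted p in each direction are described as values. The adjusted p was 0.998 for all 20, and their differences ran from 0.13 to 0.40 in size. Sox5, a transcription factor of the SoxD family that acts in neuronal differentiation, came first. Its level ran from 5.51 through a median of 5.76 to 6.08 in low mice and from 5.94 through 6.16 to 6.47 in medium mice. All 12 medium arrays lay above the low median and 9 lay above every low array. The difference was 0.40 ± 0.09 (SE; 12 medium and 8 low mice; limma, unadjusted p = 7.9e-05). High mice averaged 5.93, between both groups. The other 3 tested probe sets of Sox5, all brighter, differed by -0.03, 0.01 and -0.00.

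Elmod3, which encodes a GTPase-activating protein, ran from 6.70 through 6.92 to 7.14 in low mice and from 6.95 through 7.15 to 7.43 in medium mice. All 12 medium arrays were above the low median, with a difference of 0.26 ± 0.06. Its second probe set differed by 0.07. Polrmt, the RNA polymerase of mitochondria, ran from 7.87 through 8.23 to 8.37 in low mice and from 8.25 through 8.41 to 8.44 in medium mice, where 10 of 12 arrays lay above every low array. The difference of 0.18 ± 0.05 included low mouse 5 at 7.87, well under the next low array at 8.18. The second Polrmt probe set differed by 0.02.

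The other genes with higher medium means had smaller or dimmer signals. Slc20a1, a sodium-dependent phosphate transporter, differed by 0.32 ± 0.09 at levels between 5.19 and 6.35, while its far brighter probe set, with group means of 9.86 in both groups, differed by -0.00. Btbd19 differed by 0.27 ± 0.08 and the predicted gene Gm8273 by 0.26 ± 0.07. Rcor3, a corepressor of the CoREST family, differed by 0.24 ± 0.07. Its other tested probe sets differed by 0.09 ± 0.09, 0.12 ± 0.09 and, in the opposite direction, -0.13 ± 0.08. Kcns2, a modulatory potassium channel subunit, differed by 0.18 ± 0.06, and its second probe set by 0.13 ± 0.11. The difference was 0.17 ± 0.05 for Ttll5, an enzyme that adds glutamates to tubulin. For Inip, a component of a sensor of single-stranded DNA, it was 0.13 ± 0.04, and its 2 other probe sets differed by -0.05 and -0.04.

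Among genes with lower medium means, Tsc22d1, a leucine zipper regulator first found as a target of transforming growth factor beta, led. Low mice ran from 9.41 through 9.76 to 10.33 and medium mice from 9.15 through 9.34 to 9.73. All 12 medium arrays lay under the low median, 9 lay under every low array, and the difference was -0.40 ± 0.10 (SE; limma, unadjusted p = 0.00046). Of its 5 other probe sets, 3 differed in the same direction by less (-0.14, -0.04 and -0.02). The brightest, at group means of 12.07 and 12.09, differed by 0.02, and another differed by 0.22 ± 0.08 in the opposite direction (unadjusted p = 0.013).

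Elavl2 encodes a neuronal RNA-binding protein of the Hu family. Its level ran from 9.28 through 9.49 to 9.57 in low mice and from 9.24 through 9.30 to 9.44 in medium mice. The difference was -0.15 ± 0.04, and all 12 medium arrays lay under the low median. A dimmer Elavl2 probe set differed by -0.51 ± 0.19 (unadjusted p = 0.011), while the 2 brighter ones both differed by 0.03. Slc7a11, the cystine-glutamate exchanger that supplies cysteine for glutathione, was the other gene with a second probe set at an unadjusted p under 0.05 in the same direction. The leading probe set ran from 6.55 through 6.89 to 7.04 in low mice and from 6.37 through 6.59 to 6.87 in medium mice. Its difference was -0.23 ± 0.08, and that of the second was -0.23 ± 0.09 (unadjusted p = 0.014). Within spike-in cluster 1, which held 2 low and 2 medium arrays, the leading Slc7a11 probe set differed by 0.06 ± 0.15 instead.

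Of the remaining genes with lower medium means, Lsm8, which binds the U6 RNA of the spliceosome, differed by -0.21 ± 0.06 and Polr1d, a subunit shared by RNA polymerases I and III, by -0.19 ± 0.06. The actin-binding Cnn3 differed by -0.24 ± 0.07. Xrcc4, a DNA end-joining factor, differed by -0.20 ± 0.06, with low mouse 5 alone at 7.41 above a next array at 7.06. The Y-linked demethylase homologue Uty differed by -0.21 ± 0.07, the peptide transporter Slc15a2 by -0.17 ± 0.05 and the small GTPase Rasl12 by -0.17 ± 0.06.

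**Figure D2:**
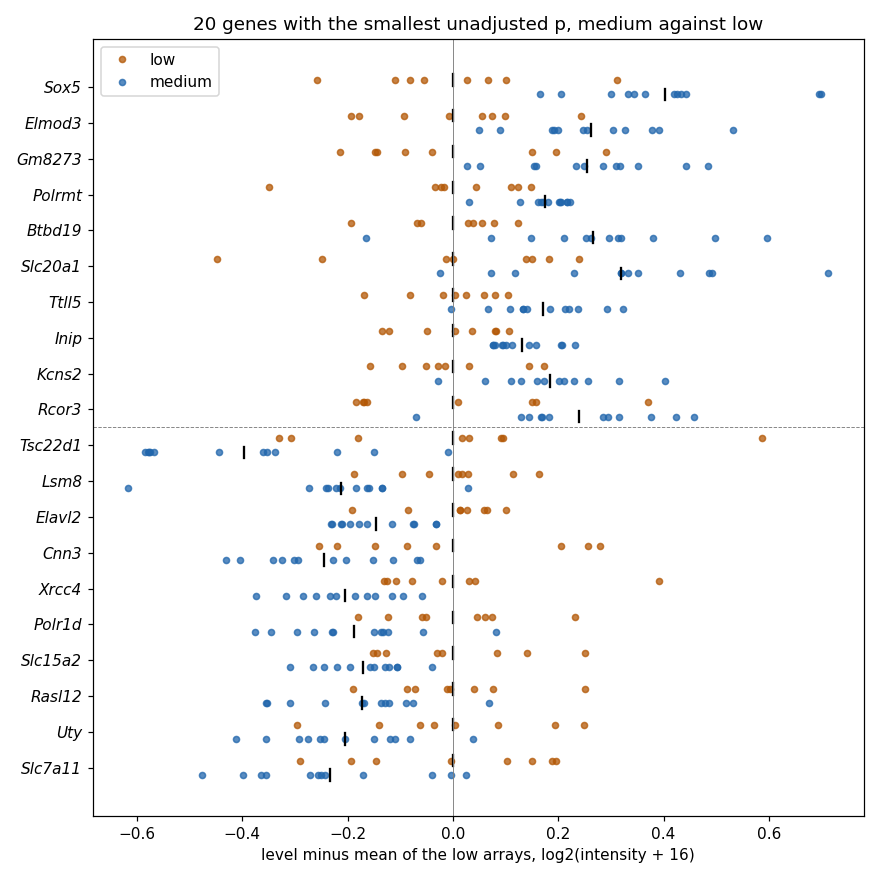
Level of each array minus the mean of the low arrays (x axis, log2(intensity + 16)) for the 20 genes with the smallest unadjusted p (y axis), 10 with higher and 10 with lower medium means. Points are the 8 low and 12 medium mice, and black bars are group means. The groups overlap in each gene; in Sox5, 9 medium arrays lie above every low array.

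Other tested probe sets existed for 18 of the 20 genes, 36 in all, and 20 of the 36 differed in the same direction as the leading one. An unadjusted p under 0.05 in the same direction was reached by 2 (Elavl2 and Slc7a11) and in the opposite direction by 1 (Tsc22d1), beside 1.58% and 1.52% of all probe sets in the higher and lower directions. Sox5, Elmod3, Tsc22d1 and Cnn3 were led by probe sets of the design class (suffix x) that can also bind related transcripts, 4 of the 20.

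The genes that separated high mice from the other classes in these data were looked up whatever their values. Bloc1s2, a subunit of complexes that form lysosome-related organelles, ran from 8.79 through 8.95 to 9.04 in low mice and from 8.88 through 8.97 to 9.10 in medium mice. Its difference was 0.04 with a 95% interval from -0.04 to 0.13, and the medium arrays were split 6 and 6 around the low median. P4ha2, a collagen prolyl hydroxylase, differed by -0.07 (-0.22 to 0.09), Rbm14, an RNA-binding coactivator, by -0.01 (-0.13 to 0.11) and Elp4, an Elongator subunit, by -0.04 (-0.15 to 0.07). Each of the intervals given lies within 0.25 of zero. Other tested probe sets of Rbm14 differed by -0.04 ± 0.16, 0.00 ± 0.08 and -0.02 ± 0.09, the first with a wider error. Choosing genes by a difference of high mice from the other classes favours close low and medium means, so these intervals are no separate test. Crocc, a protein of the ciliary rootlet, differed by 0.17 (0.02 to 0.31; unadjusted p = 0.031) and Npy1r, a receptor for neuropeptide Y, by -0.16 (-0.33 to 0.00). Epb41l1 differed by 0.07, and a dimmer probe set of it by 0.18 ± 0.07. Ccni differed by -0.01 and a second probe set of it by 0.11 ± 0.05.

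Immediate early genes had lower medium means more often than not, and the list held no call. Of 24 tested members, 5 had higher and 19 lower means in medium mice, with a median difference of -0.15. Among the lists examined this was exceeded in size only by the choroid plexus. Over all 41 tested probe sets of these genes, rather than the brightest of each, the median was -0.10. Over all 11218 genes, each at its brightest probe set, the median was 0.00 and 52.2% were above zero. None of the 24 passed after adjustment, and 2 (Btg2 and Bdnf) reached an unadjusted p under 0.05, beside 1.52% of all probe sets in that direction. Without medium mouse 9 the median was -0.15 and 1 of 24 was above zero. Centring arrays on their medians gave -0.12, and no normalization gave -0.04 against a shift of 0.11 over all probe sets. Within spike-in clusters 1, 2 and 3 the medians were 0.17, -0.24 and -0.12, so cluster 1, with 2 mice per group, went the other way. Without the 7 arrays with bright choroid plexus markers the median was -0.21. With the spike-in cluster as a block it was -0.12, with 4 of 24 above zero.

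At the level of arrays the groups overlapped almost wholly. The mean of the 24 genes ran from 7.93 through 8.56 to 8.73 in low mice and from 7.90 through 8.27 to 8.70 in medium mice. It averaged 8.46 ± 0.25 (SD, n = 8) and 8.30 ± 0.28 (SD, n = 12), and 8.44 in the 5 high mice. A low mouse, the sixth, was near the bottom of the whole set at 7.93, and medium mice 1 and 2 were near its top.

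**Figure D3:**
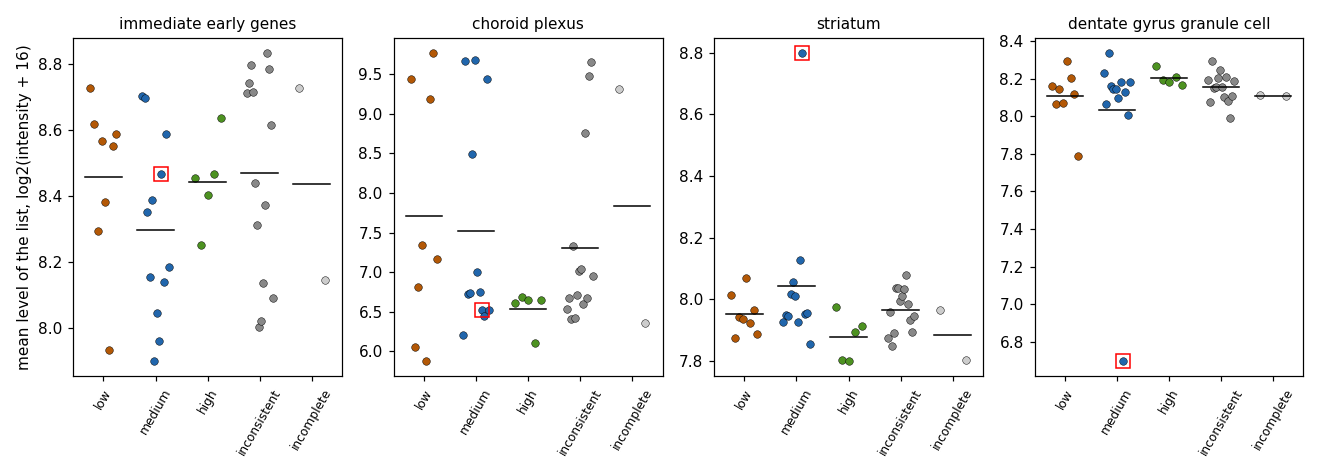
Mean level of 4 gene lists per array (y axis, log2(intensity + 16), a separate scale in each panel) by labelled group. Points are arrays, black lines are group means, and the red square marks medium mouse 9, which lies at 8.80 for striatum markers and at 6.70 for dentate gyrus granule cell markers. Choroid plexus markers divide the low and the medium mice each into bright and dim arrays.

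Btg2, an antiproliferative factor induced by firing and by p53, led the immediate early genes. Its level was 7.81, 7.84, 7.41, 7.72, 7.26, 7.58, 7.87 and 7.85 in low mice 1 to 8. In medium mice it ran from 6.90 through a median of 7.22 to 7.90, so that medium arrays spanned the whole low range and went below it. The difference was -0.39 ± 0.13 (SE; limma, unadjusted p = 0.0058, adjusted p = 0.998). It was -0.36 without medium mouse 9.

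Bdnf, which encodes brain-derived neurotrophic factor, ran from 8.88 through 9.08 to 9.42 in low mice and from 8.67 through 8.87 to 9.23 in medium mice. The medium arrays reached lower, with 6 of 12 under every low array. The difference was -0.17 ± 0.07 (unadjusted p = 0.028), and the second Bdnf probe set differed by -0.22 ± 0.08 (unadjusted p = 0.011). Both tested Bdnf probe sets thus lay on the same side. In high mice its mean was 9.28, above both groups.

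Fos, the transcription factor most used as a marker of recent firing, was 9.90, 9.54, 8.71, 9.46, 8.53, 7.39, 9.84 and 9.83 in low mice 1 to 8. In medium mice it ran from 7.46 through 8.55 to 9.97. Medium mice 1, 2 and 11 were as high as the highest low mice, and 6, 7 and 8 were the 3 lowest of the medium group. The difference of -0.38 ± 0.34 was about as large as its error (95% interval -1.08 to 0.32). It was -0.63 without low mouse 6, and with any other array left out it lay between -0.49 and -0.26. Within spike-in cluster 1 it was 0.68 ± 0.42. Arc, a cytoskeletal protein of active synapses, showed the same arrays at its ends: low mouse 6 was lowest among low mice at 7.84, and medium mice 6, 7 and 8 were at 7.37, 7.57 and 7.45. Its difference was -0.40 ± 0.25 (-0.92 to 0.11), and it was 0.43 ± 0.23 within spike-in cluster 1.

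Among the remaining members, the zinc finger factor Egr2 differed by -0.39 ± 0.29. The nuclear receptor Nr4a3 differed by -0.29 ± 0.15, and by -0.18 without medium mouse 9, which was lowest at 8.41. Klf4 differed by -0.28 ± 0.15, the phosphatases Dusp6 and Dusp1 by -0.16 ± 0.09 and -0.27 ± 0.20, Junb by -0.20 ± 0.12 and Nr4a1 by -0.25 ± 0.16. Nptx2, a pentraxin that clusters glutamate receptors, was the largest exception at 0.28 ± 0.18. It was 0.16 without medium mouse 9, where it was highest at 7.94. Homer1 differed by 0.03 ± 0.05.

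**Figure D4:**
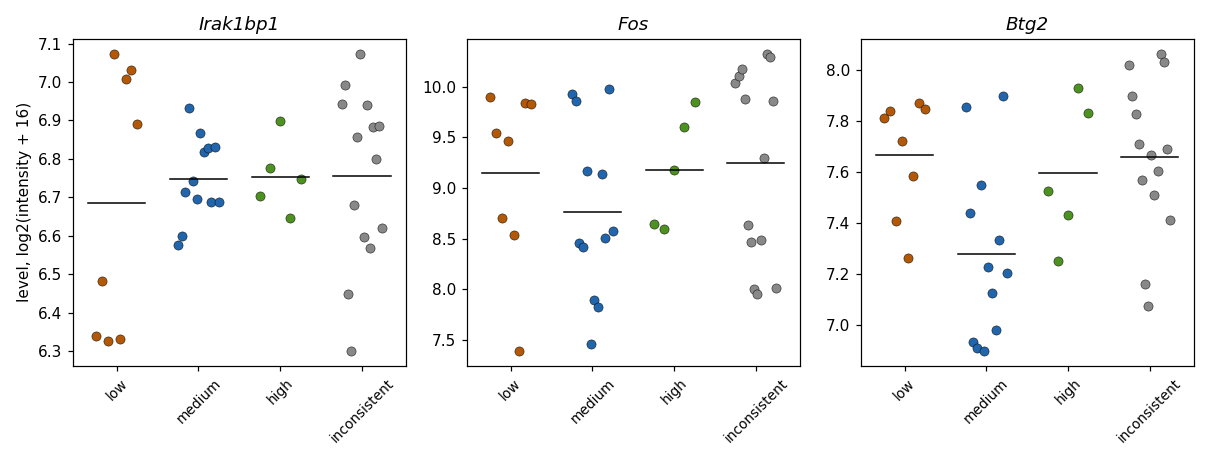
Level per array (y axis, log2(intensity + 16), a separate scale in each panel) of Irak1bp1, Fos and Btg2 in low, medium, high and inconsistently ranked mice. Points are arrays and black lines are group means. In Irak1bp1 the low mice lie at 6.33 to 6.48 or at 6.89 to 7.07, while the medium mice lie from 6.58 to 6.93; in Fos and Btg2 the groups overlap along most of their range.

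Upstream sequence is shown for Btg2, which led the list, and for Dusp1 and Fos, whose lowest arrays were the same. Dusp1, like Fos, was lowest among low mice in mouse 6 (8.63) and among medium mice in 6, 7 and 8 (8.22, 8.38 and 8.52). The 250 bases before the start of transcription, from RefSeq on GRCm38.p6, are written 5′ to 3′ on the gene's strand. Capitals mark the full element TGACGTCA, a palindrome that reads the same on both strands, and its core TGACG or, on the other strand, CGTCA, which the full element contains. The stretches are chr1:134079156-134079405 on the minus strand for Btg2, chr17:26508473-26508722 on the minus strand for Dusp1 and chr12:85473640-85473889 on the plus strand for Fos.
Btg2: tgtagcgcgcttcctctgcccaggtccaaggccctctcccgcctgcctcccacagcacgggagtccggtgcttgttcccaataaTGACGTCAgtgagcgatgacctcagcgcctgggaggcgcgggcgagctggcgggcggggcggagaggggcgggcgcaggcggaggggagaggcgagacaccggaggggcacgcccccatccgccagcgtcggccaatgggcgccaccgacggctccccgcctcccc
Dusp1: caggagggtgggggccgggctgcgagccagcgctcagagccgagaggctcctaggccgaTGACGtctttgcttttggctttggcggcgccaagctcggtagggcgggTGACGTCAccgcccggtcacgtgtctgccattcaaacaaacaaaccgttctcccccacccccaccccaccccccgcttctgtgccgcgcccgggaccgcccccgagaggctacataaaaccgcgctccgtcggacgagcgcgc
Fos: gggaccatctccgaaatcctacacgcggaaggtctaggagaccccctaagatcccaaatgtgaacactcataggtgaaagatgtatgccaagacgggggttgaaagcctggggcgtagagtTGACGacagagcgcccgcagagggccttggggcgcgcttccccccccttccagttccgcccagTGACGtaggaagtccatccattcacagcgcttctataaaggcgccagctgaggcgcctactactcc

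The full element began 166 bases before the start in Btg2 and 143 bases before it in Dusp1, and the Fos stretch held 2 cores and no full element. Of the 24 tested immediate early genes, 19 had at least 1 upstream stretch in the table, 31 stretches in all. Among these 31, 2 (6.45%) held the full element and 18 (58.1%) held a core, beside 1.55% and 17.8% of all 32851 stretches of the same length. The 2 with the full element are those of Btg2 and Dusp1 shown above, and no other gene of the list held it. A match of letters is a description only, and these genes were listed for their known induction by firing.

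Markers of the hippocampal cell types gave no call either, and the medians of the regional lists moved towards or past zero without medium mouse 9. Prox1, the transcription factor of dentate granule cells, ran from 7.01 through 7.23 to 7.82 in low mice and from 5.59 through 7.27 to 7.57 in medium mice, where 5.59 was mouse 9. Its difference was -0.15 ± 0.17, and -0.01 without that mouse. Other tested probe sets of Prox1 differed by 0.00 and 0.06. Over the 11 dentate gyrus granule cell markers 2 were above zero with a median of -0.03. Once medium mouse 9 was left out, 8 were above zero with a median of 0.03. Over the 6 tested CA1 pyramidal cell markers 2 were above zero (median -0.07), and 6 (median 0.04) without it. Wfs1, a CA1 marker, differed by 0.00 ± 0.07. Striatum markers had 9 of 10 members above zero with a median of 0.09, and 6 of 10 with a median of 0.03 without that mouse. Ppp1r1b, the phosphatase regulator DARPP-32 of striatal neurons, differed by 0.20 ± 0.18 and by 0.07 without it.

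The glial and vascular lists had medians within 0.1 of zero. Mbp, a main protein of myelin, differed by 0.05 ± 0.03 at a level near 13, and 7 of 15 oligodendrocyte and myelin genes were above zero (median -0.01). Other tested probe sets of Mbp differed by -0.08 to 0.09, some above and some below zero. The astrocyte filament Gfap differed by -0.12 ± 0.16, with 9 of 13 astrocyte genes above zero (median 0.02). Microglia had 6 of 13 above zero (median -0.02), and 7 of 13 (median 0.00) without medium mouse 9. Of 11 endothelium and pericyte genes 3 were above zero with a median of -0.03, and 3 with a median of -0.06 without that mouse. The endothelial adhesion protein Pecam1 differed by -0.12 ± 0.07 and the growth factor receptor Kdr by -0.17 ± 0.11. Among GABAergic interneuron genes 9 of 12 were above zero (median 0.03), and 7 of 12 (median 0.02) without that mouse. Gad1, which makes GABA, led them at 0.10 ± 0.04 (unadjusted p = 0.039), beside 1.58% of all probe sets at that level in that direction.

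All members of 3 lists of tissues that border the hippocampus had lower medium means with all 20 arrays, and none was called. The 9 choroid plexus genes had a median of -0.22, the 9 meningeal fibroblast genes of -0.06 and the 7 ependymal and cilium genes of -0.09. Without medium mouse 9 the medians were -0.10, -0.07 and -0.04, with 1 of 9, 2 of 9 and 0 of 7 above zero. Errors of the choroid plexus genes were wide, from 0.34 to 0.78. Those of the ependymal and cilium genes ran from 0.06 to 0.18. For Ttr, the thyroid hormone carrier of the choroid plexus, low mice ran from 7.72 through 12.09 to 13.40 and medium mice from 8.09 through 10.85 to 13.40, and the difference was -0.15 ± 0.78. Without the 7 bright arrays the choroid plexus median was -0.02 with 3 of 9 above zero. Within spike-in clusters 1, 2 and 3 it was 0.34, 0.50 and -0.80. Without normalization the meningeal median was 0.04 and the ependymal median -0.00, against the shift of 0.11 over all probe sets.

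The genes that varied most among the 20 arrays varied inside both groups. Of the 20 probe sets with the largest SD, 19 had their 3 highest arrays among the 7 choroid-bright ones. They covered Ttr, Ecrg4, Clic6, the potassium channel Kcnj13, the folate receptor Folr1, Calml4, Sostdc1, Kl, Slc13a4, Rdh5, Sulf1, Slc2a12 and Lbp. Most of these genes are among the choroid plexus markers whose mean defined the bright arrays, so their match was largely fixed in advance. Only Ecrg4, Rdh5, Sulf1, Slc2a12 and Lbp lie outside that marker list. The SD of the most variable Ttr probe set over the 20 arrays was 2.44, beside a median of 0.17 over all tested probe sets. Its levels spanned 6.51 to 13.32 in low mice and 7.13 to 13.25 in medium mice, so both groups covered nearly the whole range. The remaining probe set was that of Dsp, a desmosomal protein of dentate granule cells, at 4.57 in medium mouse 9 and 7.76 to 9.59 in low mice.

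Synaptic and signalling lists had medians within 0.05 of zero with all 20 arrays. Single members ran from -0.12 among glutamate receptors to 0.30 among voltage-gated sodium and calcium channels. Of 20 glutamate receptor genes 14 were above zero with a median of 0.04, and Grin2b, an NMDA receptor subunit, differed by 0.09 ± 0.09. Other tested probe sets of Grin2b differed by -0.10 and -0.02. Voltage-gated sodium and calcium channels had 18 of 23 above zero (median 0.05), and 13 of 23 (median 0.02) without medium mouse 9. Scn8a, the main sodium channel of the axon initial segment, differed by 0.09 ± 0.04 (unadjusted p = 0.035). Synaptic vesicle and release genes had 16 of 22 above zero (median 0.03), and 12 of 22 (median 0.00) without that mouse, whose mean for the list was 10.84 against 10.32 to 10.48 in the others. Plasticity kinases and phosphatases had 16 of 23 above zero (median 0.02) and 11 of 23 (median -0.00) without it. Camk2a, the kinase subunit central to long-term potentiation, differed by 0.00 with an interval from -0.23 to 0.23. Its other tested probe sets differed by 0.02, -0.12, 0.11 and -0.07. Postsynaptic scaffolds had 9 of 17 above zero, and 7 of 17 (median -0.03) without medium mouse 9. Potassium channels had 17 of 27 (median 0.02), and 14 of 27 (median 0.01) without it. GABA-A receptors had 4 of 9 above zero (median -0.01), and 5 of 9 (median 0.00) without it.

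Chromatin regulators, on which the series centres, also lay close to zero. Histone deacetylases and sirtuins had 14 of 18 members above zero with a median of 0.07, and 14 of 18 with a median of 0.05 without medium mouse 9. Hdac6 led at 0.13 ± 0.08 (unadjusted p = 0.13), and Hdac2, a deacetylase linked to memory, differed by -0.01 with an interval from -0.11 to 0.08. Histone acetyltransferases were split 7 and 5, and Crebbp, the CREB-binding acetyltransferase, differed by 0.00 (-0.09 to 0.09). DNA methylation genes were split 6 and 6, and 4 of 12 were above zero (median -0.04) without medium mouse 9. Dnmt1, the maintenance methyltransferase, differed by 0.02 (-0.13 to 0.16), and Gadd45b, a stress- and activity-induced factor of DNA demethylation, by -0.23 ± 0.11 (unadjusted p = 0.039). Dimmer probe sets of Dnmt1 both differed by 0.11, and those of Crebbp by 0.07 and 0.09. Histone methyltransferases and demethylases were split 16 and 14, with Kdm4b first at 0.19 ± 0.10.

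Housekeeping and stress lists had medians close to zero. Proteasome genes had 6 of 31 above zero with a median of -0.02, and 10 of 31 with a median of -0.01 without medium mouse 9. Respiratory chain genes had 13 of 41 above zero (median -0.02). With arrays centred on their medians these medians were 0.01 and 0.00, while that of all 11218 genes went from 0.00 to 0.03. Cytosolic ribosomal proteins were split 9 and 9. Of the cytosolic chaperones 10 of 25 were above zero. Hspa4 led at 0.21 ± 0.08 (unadjusted p = 0.013), while Hspa1b, whose probe sets can also read its near-identical copy Hspa1a, differed by 0.08 ± 0.18. Manf, a chaperone of the endoplasmic reticulum, differed by -0.06 ± 0.10, and its list was split 10 and 11. Glucocorticoid-responsive genes had 9 of 19 above zero (median -0.00), and 14 of 19 (median 0.03) without medium mouse 9. Circadian clock genes had 10 of 20 (median -0.00), and 8 of 20 (median -0.05) without it. Adult neurogenesis genes had 2 of 10 above zero (median -0.03), led by Neurod1 at -0.20 ± 0.09 (unadjusted p = 0.028). Interferon response genes had 3 of 9 above zero (median -0.08), led by Ifitm3 at -0.23 ± 0.11 (unadjusted p = 0.044).

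**Figure D5:**
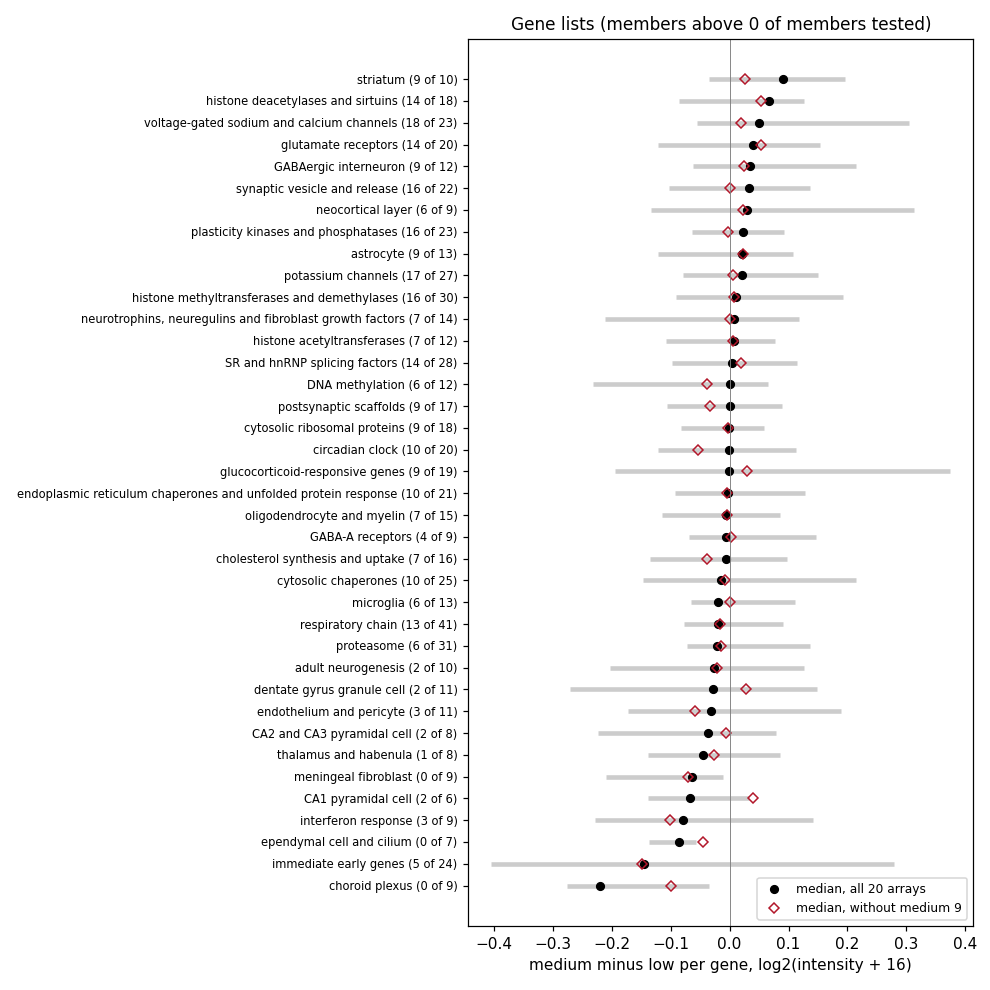
Median difference between medium and low mice (x axis, log2(intensity + 16)) for 38 gene lists with at least 5 tested members (y axis), with all 20 arrays (black points) and without medium mouse 9 (red diamonds). Grey bars span the lowest to the highest member, and brackets give the members above zero. Only the choroid plexus (-0.22) and immediate early gene (-0.15) medians exceed 0.1 in size, and the striatum, dentate and CA1 medians move when that mouse is left out.

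A last comparison asked whether mice of one class varied more among themselves than mice of the other. The median SD was 0.16 in both groups, and 0.14 in medium mice without mouse 9. Deviations from the group mean differed at an adjusted p under 0.05 for 1 of 22519 probe sets (0.00444%) in limma. That probe set belonged to Irak1bp1, which encodes a protein that binds the interleukin receptor kinase IRAK1 and modulates NF-kappa B signalling. At an unadjusted p under 0.05 there were 1058 (4.7%), 369 of them wider in medium and 689 wider in low mice. This balance turned to 527 against 480 without low mouse 5, and was 343 against 1087 without medium mouse 9.

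Irak1bp1 was 6.34, 6.48, 6.33, 7.07, 6.33, 7.01, 7.03 and 6.89 in low mice 1 to 8. In medium mice it ran from 6.58 through 6.73 to 6.93. Thus 4 low mice lay below every medium mouse and 3 above every one, and the group means were close, 6.69 and 6.75. The SD was 0.34 in low and 0.11 in medium mice (difference in scaled deviation -0.24; limma, adjusted p = 0.0042), 0.09 in high mice and 0.22 in the 14 inconsistently ranked mice, which spanned 6.30 to 7.07. The second Irak1bp1 probe set had SDs of 0.06 and 0.08. On simulated data the spread test also made 1 false call. The adjusted p was between 0.053 and 0.068 without any of low mice 1, 3, 4, 5, 6 and 7 in turn. It was 0.79 after the spike-in cluster means were removed, where the difference was -0.16, and 0.63 without the 7 choroid-bright arrays, where the difference was -0.22. In those 2 settings the single call was another gene, Sox6 and Abcc5, and without medium mouse 11 Dock4 was called beside Irak1bp1, as wider in medium mice.

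Of the other genes with the smallest p for spread, none passed. Sox6, a partner of Sox5 in the SoxD family, had an SD of 0.24 in low and 0.09 in medium mice (adjusted p = 0.23). Nrip1, a nuclear receptor corepressor, had 0.41 and 0.12, with low mouse 5 at 7.49 and the highest at 8.56. Nipbl, the cohesin loader, had 0.37 and 0.16, and Dlk1 had 0.47 and 0.15. Wider in medium mice were Dock4, a Rac activator, with SDs of 0.13 and 0.42 (adjusted p = 0.23), and Aff3 with 0.06 and 0.27. So were Abi2 with 0.12 and 0.31, Snrnp200 with 0.03 and 0.14, and Eya3 with 0.08 and 0.23. In other tested probe sets of these genes the limma adjusted p was 0.946 or more. Those of Dock4 and Snrnp200 were again wider in medium mice, and those of Sox6 again in low mice. Those of Aff3 (0.19 and 0.12) and Eya3 (0.15 and 0.14) were wider in low mice instead. Those of Abi2, Nipbl and Nrip1 went both ways.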

How the data were processed

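RNA of 41 hippocampi was measured on 41 Affymetrix arrays. The values deposited by the authors are linear probe set intensities (0.0112 to 13549), and the software named in the submitters' processing notes is Partek and RMA, with no version. Array medians of 22.4 to 53.4 in low and medium mice show no common scaling, so intensities were quantile-normalized, 16 was added and log2 taken. After leaving out 64 controls, the brighter 22519 of 45037 probe sets by mean were tested, of which 20032 had 1 symbol in the platform annotation. limma 3.58.1 in R 4.3.3 fitted low, medium and high arrays together, with Benjamini-Hochberg adjustment at 0.05. Spread was tested with limma on absolute deviations from group means. Each replicate is a separate mouse, and the number of arrays limits the precision.

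The groups and gene lists were chosen with earlier results of these data known. Named genes were up to 12 per direction past the threshold, with unfilled places to 10 going to the smallest p, up to 3 leading members of a list, 25 named whatever their values, their other probe sets, 5 per direction for spread and the 20 most variable probe sets. On simulated data for medium against low (22519 probe sets, 50 changed per size), 46% of changes of 0.25, 94% of 0.5 and 100% of 1 were recovered, and 4.49% of calls were false. The spread test recovered 0% of SDs raised 2-fold, 4% at 3-fold and 8% at 4-fold, and made 1 false call. Simulated noise was independent between probe sets. For medium against low, changes of every size up to 2 shared the same adjustment, so the large ones eased the recovery of the small ones. The recovered shares therefore do not give the power in data with few or only small changes. Alternatives covered the filter, offset, normalization, arrays, spike-in clusters, choroid plexus level, replicate block and leaving out each array.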

Additional observations from a re-analysis of the deposited data

Results flagged for a closer look

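Of 166 groups of 4 to 10 arrays examined, 8 held an array far from the others, where about 1 in 20 is flagged by chance. The gap to the nearest array as a share of the group's range was 0.635 for Polrmt in low mice, where mouse 5 was lowest at 7.87. It was 0.537 for Tsc22d1, where the same mouse was highest at 10.33, and 0.670 for Xrcc4, where it was highest at 7.41. Low mouse 8 was lowest for the mean of dentate gyrus granule cell markers (7.79, share 0.549) and of histone methyltransferases and demethylases (8.14, share 0.596). Among high mice, mouse 4 was lowest for choroid plexus markers (6.11, share 0.884), mouse 5 for red blood cell markers (7.69, share 0.723) and mouse 1 for cholesterol synthesis and uptake genes (8.31, share 0.840). The medium group of 12 was too large for this rule.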

How the results depend on the processing

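The count of 0 calls was the same in all 42 alternatives (22 settings and 20 leave-one-out fits), and the smallest adjusted p among them was 0.139, for Sox5 with all 41 arrays in the fit. Probe sets at an unadjusted p under 0.05 numbered 625 to 863 when each array was left out. They numbered 456 with arrays centred on their medians and 137 without normalization, 136 of them higher in medium mice, with a median shift of 0.11. With the replicate number as a block, 1072 probe sets reached it and 0 were called. Same-numbered mice correlated at -0.17 to 0.14, 1 of 8 pairs over 0.1, and 0 correlated best with their own number. Slc7a11 reversed to 0.058 within spike-in cluster 1. Calls for spread ran from 0 to 2 when an array was left out, 0 of them without low mouse 1, 3, 4, 5, 6 or 7 and 2 without medium mouse 11. The causes were not tested. The alternative without choroid-bright arrays for spread was chosen after seeing the data. The rank-sum test met ties in 2508 probe sets. The 95% interval of a difference had a median half-width of 0.15 over probe sets.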

Other observations

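Medium mouse 9 differed from the other 19 low and medium arrays in lists beyond the regional markers. Its mean was above all 19 for GABAergic interneuron genes (9.74 against 9.18 to 9.36), circadian clock genes (8.64 against 8.15 to 8.34), plasticity kinases and phosphatases (10.83 against 10.44 to 10.63), potassium channels (9.05 against 8.84 to 8.95) and voltage-gated sodium and calcium channels (8.84 against 8.54 to 8.71). It was below all 19 for CA2 and CA3 pyramidal cell markers (8.13 against 8.38 to 8.72) and for ependymal and cilium genes (5.87 against 5.93 to 6.82). Its immediate early gene mean of 8.47 lay inside the range of the others, 7.90 to 8.73.

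Choroid-bright arrays also occurred outside the comparison, in 3 of 14 inconsistently ranked mice (8.76, 9.48 and 9.65) and in 1 of the 2 mice with incomplete data (9.31).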
